A study of Mus musculus with 15 samples.

Results

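The 10 genes described here encode dual-specificity MAP kinase phosphatases, the enzymes that switch MAP kinases off: Dusp1, Dusp2, Dusp4, Dusp5, Dusp6, Dusp7, Dusp8, Dusp10, Dusp14 and Dusp16. They were chosen by gene symbol, each represented by the probe set that carries exactly that symbol and, for Dusp8 with its 2 probe sets, by the one with the higher mean, and they are 10 of the 19938 genes measured. Expression was measured on Affymetrix Mouse Gene 1.0 ST arrays in RNA of the whole thymus, with 1 array per mouse. All mice were females aged 5 weeks whose thymus was taken 2 h after an intravenous dose of 0.5 µg of peptide. The groups were NOD.LCMV mice given gp33 (n = 3), NOD.LCMV mice given a control peptide that binds the class I molecule Db (n = 3), NOD.Ln82-LCMV mice given gp33 (n = 5) and NOD.Ln82-LCMV mice with the control peptide (n = 4). The gp33 peptide is a piece of the glycoprotein of lymphocytic choriomeningitis virus that Db displays to CD8 T cells. The labels explain neither the Ln82 segment nor the LCMV part of the strain names, and name no batch of processing, so strain and any batch along its lines cannot be told apart.

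MAP kinases (ERK, JNK and p38) are turned on by phosphorylation of a threonine and a tyrosine, and dual-specificity phosphatases remove both phosphates. In T cells the antigen receptor activates ERK through Ras, and ERK activity is known to take part in the positive and negative selection of thymocytes. Several of the phosphatase genes are themselves known targets of MAP kinase signalling, so that their transcripts rise soon after the kinases become active. The members fall into 4 classes by location and preferred substrate: Dusp1, Dusp2, Dusp4 and Dusp5 are nuclear and inducible, Dusp6 and Dusp7 are cytoplasmic and act on ERK, Dusp8, Dusp10 and Dusp16 act on JNK and p38, and Dusp14 is a small phosphatase that lacks the kinase-binding domain of the other members.

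The promoters of 9 of the 10 members were found in a RefSeq table of the assembly GRCm38.p6, with Dusp4 not among them. The 4 shown here are those of members that rose after gp33 and hold a cAMP response element, its half-site or a CArG box before the start (Dusp2 also rose, but its half-site lies after the start, at 6, outside the bases printed), with matches to the cAMP response element TGACGTCA or its half-site TGACG and to the CArG box, which serum response factor binds, in capitals. Each line gives the 250 bases before the transcription start.
Dusp1 promoter, chr17:26508473-26508722, minus strand: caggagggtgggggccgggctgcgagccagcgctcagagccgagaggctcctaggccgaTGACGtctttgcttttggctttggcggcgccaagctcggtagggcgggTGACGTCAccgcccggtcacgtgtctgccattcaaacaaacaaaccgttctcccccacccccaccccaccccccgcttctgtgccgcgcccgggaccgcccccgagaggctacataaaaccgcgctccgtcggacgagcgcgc
Dusp5 promoter, chr19:53528895-53529144, plus strand: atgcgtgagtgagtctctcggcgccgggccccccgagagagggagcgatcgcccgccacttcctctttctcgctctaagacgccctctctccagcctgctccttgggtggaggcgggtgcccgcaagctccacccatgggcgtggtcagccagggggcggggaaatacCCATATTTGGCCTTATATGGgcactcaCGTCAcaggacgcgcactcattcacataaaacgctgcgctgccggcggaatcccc
Dusp8 promoter, chr7:142095285-142095534, minus strand: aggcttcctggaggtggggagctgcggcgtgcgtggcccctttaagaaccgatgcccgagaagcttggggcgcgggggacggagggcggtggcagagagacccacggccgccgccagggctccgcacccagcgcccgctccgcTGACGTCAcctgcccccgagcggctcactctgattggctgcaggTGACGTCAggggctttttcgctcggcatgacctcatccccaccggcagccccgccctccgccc
Dusp16 promoter, chr6:134792629-134792878, minus strand: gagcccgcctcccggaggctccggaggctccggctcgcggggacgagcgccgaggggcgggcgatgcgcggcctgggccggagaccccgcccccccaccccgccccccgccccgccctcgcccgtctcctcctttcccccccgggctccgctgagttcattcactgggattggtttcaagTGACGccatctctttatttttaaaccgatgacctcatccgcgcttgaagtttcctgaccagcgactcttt
The run of 20 capitals in Dusp5 is 2 CArG boxes side by side, and the half-site reads CGTCA where it lies on the other strand.

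Motifs were searched on both strands in windows of 300 bases, 250 before and 50 after the start, and the search was made with the responses below known. The half-site TGACG was present in the windows of Dusp1, Dusp2, Dusp5, Dusp8 and Dusp16, which are the 5 members in the table that rose after gp33 in NOD.LCMV. It was absent from the windows of Dusp6, Dusp7, Dusp10 and Dusp14, which did not rise, and 20.8% of all 32851 windows held it. The full element TGACGTCA, which contains the half-site, lay in the window of Dusp1 with its first base at -143 and in that of Dusp8 at -107 and -63. Of all windows 1.79% held a full element, and 13 windows, or 0.0396%, held 2 or more. The CArG box was found in the window of Dusp5 alone among the members, at -82 and -72, so that one box ends where the next begins. A box was present in 1.63% of all windows and 2 or more in 6 windows, or 0.0183%. The letters GCGNGGGCG, which EGR proteins bind, were present in the windows of Dusp2 and Dusp16 (5.55% of all windows). Those of an NF-κB site, GGGANNNNCC, were present in the windows of Dusp1, Dusp5, Dusp6 and Dusp7, 2 of them genes that rose and 2 that did not (20.7% of all windows). The AP-1 site TGANTCA, present in 7.81% of all windows, was in the window of no member. These matches describe the letters of the windows and were not tested against the expression data.

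Array medians lay between 7.59 and 7.67 on the log2 scale, arrays of one group correlated at 0.990 or more over all probe sets. Precision is limited by how few arrays each group has. The label of the tissue was checked against thymocyte markers such as Cd3e, Cd4, Cd8a and Rag1, of which 9 were analysed here and whose mean lay between 10.93 and 11.83 on every array. The gene Cd69, an early activation marker of T cells, served as a check of the stimulus. It rose by 1.98 ± 0.07 log2 (SE) after gp33 in NOD.LCMV (limma adjusted p = 1.07e-10) and by 0.46 ± 0.06 log2 in NOD.Ln82-LCMV (limma adjusted p = 0.0215), and the other 5 of the 6 genes listed as antigen receptor targets rose in NOD.LCMV as well. In NOD.Ln82-LCMV all 6 were higher at an unadjusted limma p under 0.05, against 2.65% of all genes, with a median of 0.45 log2. For 5 of the 6 every gp33 mouse lay above every control mouse there, against 0.667% of all genes. The call of Cd69 in NOD.Ln82-LCMV, the one gene called there, was not stable: 0 genes were called in that strain without its control replicate 2, 3 or 4, without its gp33 replicate 1, 3, 4 or 5, under a replicate block, with only the groups compared and with every probe set tested. Every member had a mean above 6.92, the level that 33.3% of all genes did not exceed, with Dusp8 the dimmest at a mean of 7.63 and Dusp10 the brightest at 11.19. Levels of different genes come from different probes and are not compared further.

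After gp33 in NOD.LCMV, 6 members rose and 1 fell, while 3 did not pass the test (limma, p adjusted by Benjamini-Hochberg over all 19938 genes, threshold 0.05). Over all genes 19.8% were called, 7.29% higher and 12.5% lower. The share of members that rose was above 7.29%, but the members were chosen with earlier results of these data known. The comparison with all genes is therefore a description, and cannot test whether these phosphatase genes respond more often than others. No member was among the dimmest genes, and with those left out 1413 of 13291 genes were called higher. The split of all calls depended on the scaling, with 1453 higher and 2490 lower as deposited and 1632 higher and 1829 lower after centring the array medians, and the 7 calls of members were made under both. The members' median difference was 0.47 log2, against -0.03 over all genes. All 4 nuclear members rose, as did 2 of the 3 JNK and p38 phosphatases, and the cytoplasmic Dusp7 fell. With 3 mice against 3, an exact permutation test cannot give a p under 0.1, which was the value of each of the 7 called members.

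Dusp5, a nuclear phosphatase specific for ERK, changed most. Its log2 values were 11.38, 11.98 and 11.51 in NOD.LCMV mice given gp33, against 9.39, 9.60 and 9.46 in NOD.LCMV mice given the control peptide. The lowest gp33 array lay far above the highest control array. The rise was 2.14 ± 0.15 log2 (SE), or 4.41-fold (95% interval 3.53 to 5.51, limma adjusted p = 7.7e-08). Only 32 of the 19938 genes had a larger rise in this comparison.

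Dusp2, a nuclear phosphatase first described in activated T cells, had log2 values of 10.69, 10.65 and 10.54 in NOD.LCMV mice given gp33, against 9.38, 9.38 and 9.31 in those given the control peptide. Both groups were tight, with SDs of 0.08 and 0.04, and they did not overlap. The rise was 1.27 ± 0.10 log2, or 2.41-fold (95% interval 2.09 to 2.79, limma adjusted p = 2.05e-07).

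Dusp4, which acts in the nucleus on ERK and JNK, had log2 values of 9.72, 9.97 and 9.53 in NOD.LCMV mice given gp33, against 8.83, 8.73 and 8.55 in those given the control peptide. The groups were clear of each other although each spread more widely than those of Dusp2. The rise was 1.04 ± 0.19 log2, or 2.05-fold (95% interval 1.55 to 2.72, limma adjusted p = 0.00105).

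Dusp1, an immediate early gene whose product acts on p38, JNK and ERK, had log2 values of 11.01, 11.32 and 11.09 in NOD.LCMV mice given gp33, against 10.33, 10.39 and 10.24 in those given the control peptide. Again no gp33 array reached down to a control array. The rise was 0.82 ± 0.09 log2, or 1.77-fold (95% interval 1.55 to 2.01, limma adjusted p = 8.47e-06). From the largest rise down, the order of the nuclear class was Dusp5, Dusp2, Dusp4 and Dusp1. The intervals of Dusp2 and Dusp4 overlap, as do those of Dusp4 and Dusp1, so the order within these pairs is not settled by the spread.

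Dusp16, a phosphatase with a preference for JNK, had log2 values of 9.52, 9.62 and 9.55 in NOD.LCMV mice given gp33, against 8.97, 8.90 and 8.81 in those given the control peptide. The rise was 0.67 ± 0.06 log2, or 1.59-fold (95% interval 1.47 to 1.73, limma adjusted p = 4.56e-07). It was the largest rise outside the nuclear class. Dusp8, which acts on JNK and p38, had log2 values of 7.86, 7.79 and 7.76 in NOD.LCMV mice given gp33, against 7.52, 7.59 and 7.47 in those given the control peptide. Its rise was small, 0.28 ± 0.06 log2 or 1.21-fold (95% interval 1.103 to 1.33, limma adjusted p = 0.00545), and the groups did not overlap. The second probe set of Dusp8, with a lower mean of 6.09, differed by 0.12 ± 0.08 log2 and was not called over all probe sets (limma adjusted p = 0.443), so the 2 probe sets disagree on the call. Dusp10, the third JNK and p38 phosphatase, had log2 values of 11.09, 11.30 and 11.12 in NOD.LCMV mice given gp33, against 11.23, 11.22 and 11.16 in those given the control peptide. These groups overlapped, and the difference was -0.03 log2 (95% interval -0.15 to 0.09, limma adjusted p = 0.802).

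The cytoplasmic ERK phosphatases lay on the other side of zero. Dusp7 had log2 values of 10.12, 10.05 and 10.06 in NOD.LCMV mice given gp33, against 10.41, 10.31 and 10.37 in those given the control peptide, with no overlap. It fell by 0.29 ± 0.05 log2, to 0.820 of the control level (95% interval 0.763 to 0.880, limma adjusted p = 0.000541). Dusp6, itself known as a target gene of ERK signalling, had log2 values of 10, 9.62 and 9.87 in NOD.LCMV mice given gp33, against 10.10, 10.11 and 10.03 in those given the control peptide. The gp33 mice were all lower than the control mice, narrowly for replicate 1, and replicate 2 was the lowest. The difference, -0.25 ± 0.09 log2, was not called (limma adjusted p = 0.0765). The value moved with single mice: without gp33 replicate 1 it was -0.34 log2 and passed (limma adjusted p = 0.0252), and without gp33 replicate 2 it was -0.145 log2 (limma adjusted p = 0.341). Counted by overlap alone, 6 members were higher in every gp33 mouse than in every control mouse, against 10.9% of all genes, and 2 were lower, against 22.0% of all genes, so the 2 lower members are close to the background.

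Dusp14 had log2 values of 8.39, 8.44 and 8.36 in NOD.LCMV mice given gp33, against 8.35, 8.44 and 8.46 in those given the control peptide. The groups overlapped, and the difference was -0.02 log2 (95% interval -0.12 to 0.08, limma adjusted p = 0.878).

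**Figure D1:**
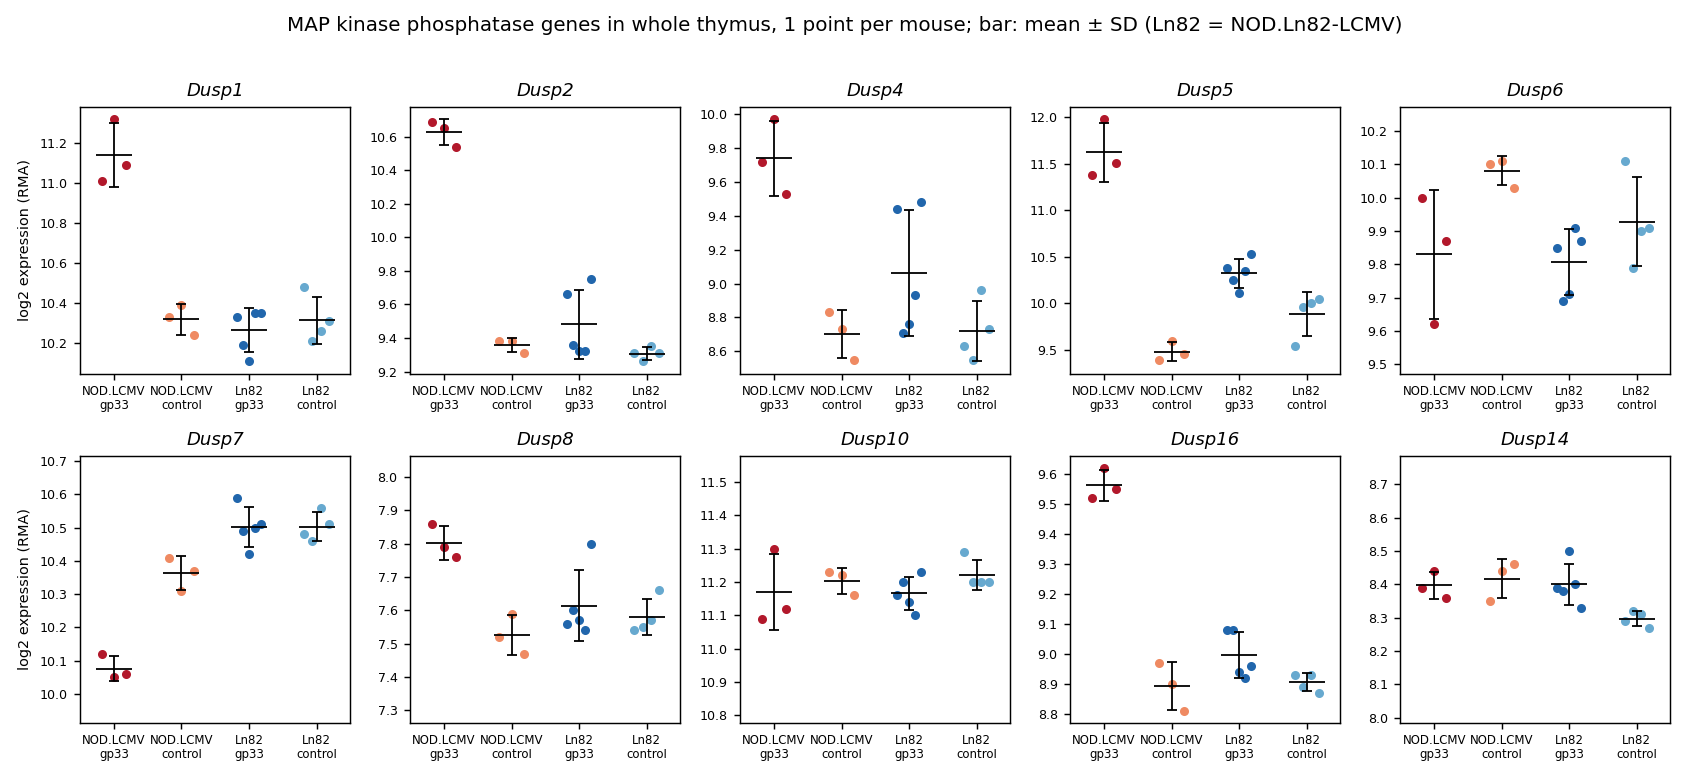
Log2 expression (RMA) of the 10 genes in whole thymus, with 1 point per mouse and bars for the group mean and SD; each panel has its own y axis and Ln82 stands for NOD.Ln82-LCMV. The 3 NOD.LCMV mice given gp33 stand above all other mice for Dusp1, Dusp2, Dusp4, Dusp5 and Dusp16 and below all other mice for Dusp7, and in the panels of Dusp2 and Dusp4 replicates 1 and 5 of the NOD.Ln82-LCMV mice given gp33 lie above the rest of their group.

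In NOD.Ln82-LCMV, 0 of the 10 members passed the same test, and over all genes 0.00502% did, which is Cd69 alone. At an unadjusted limma p under 0.05, 4 members were higher and 0 lower, against 2.65% and 3.32% of all genes (5.97% in either direction). The members' median difference was 0.06 log2, against 5e-04 over all genes. All 5 gp33 mice lay above all 4 control mice for 2 members, Dusp5 and Dusp14, and 0.667% of all genes had that pattern. The opposite pattern was found in 0 members and in 0.848% of all genes.

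For Dusp5 the log2 values were 10.38, 10.25, 10.11, 10.35 and 10.53 in NOD.Ln82-LCMV mice given gp33, against 9.54, 9.96, 10.01 and 10.05 in NOD.Ln82-LCMV mice with the control peptide. The gap between the groups was narrow, and control replicate 1 was well below the other control mice. The difference was 0.43 ± 0.12 log2, or 1.35-fold with a 95% interval of 1.12 to 1.62, and it did not pass over all genes (limma adjusted p = 0.623). The exact permutation p was 0.0159 (two-sided, 126 splits).

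Dusp4 and Dusp2 were uneven among the NOD.Ln82-LCMV mice given gp33. Dusp4 had log2 values of 9.44, 8.71, 8.76, 8.93 and 9.48 with gp33, against 8.63, 8.55, 8.96 and 8.73 with the control peptide. Dusp2 had log2 values of 9.66, 9.36, 9.32, 9.32 and 9.75 with gp33, against 9.31, 9.26, 9.35 and 9.31 with the control peptide. In both genes replicates 1 and 5 were high and the other 3 gp33 mice lay near or among the control mice. The differences were 0.35 ± 0.16 log2 for Dusp4 (limma adjusted p = 0.825, exact permutation p = 0.167) and 0.17 ± 0.08 log2 for Dusp2 (limma adjusted p = 0.8286, exact permutation p = 0.175). When arrays were weighted by their fit, replicate 5 had the lowest weight of all 15, 0.2815. Among the 5 gp33 mice its marker mean was lowest for thymocytes (11.45 log2) and thymic epithelium (9.98 log2). It was highest for endothelium (8.45 log2) and fibroblasts (8.85 log2). Whether this bears on the phosphatase genes was not tested.

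Dusp14 had log2 values of 8.39, 8.38, 8.50, 8.40 and 8.33 in NOD.Ln82-LCMV mice given gp33, against 8.29, 8.32, 8.31 and 8.27 in those given the control peptide. Every gp33 mouse lay above every control mouse by a narrow margin, and the difference was 0.10 ± 0.04 log2 (limma adjusted p = 0.75, exact permutation p = 0.0159). For the other 6 members the differences lay between -0.12 log2, in Dusp6, and 0.09 log2, in Dusp16. Dusp1, which rose in NOD.LCMV, had log2 values of 10.33, 10.19, 10.11, 10.35 and 10.35 in NOD.Ln82-LCMV mice given gp33, against 10.48, 10.21, 10.26 and 10.31 in those given the control peptide. Its 2 groups overlapped, with a difference of -0.05 log2 and a 95% interval of -0.20 to 0.11. Dusp7 differed by -5e-04 log2 with an interval of -0.08 to 0.08.

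**Figure D2:**
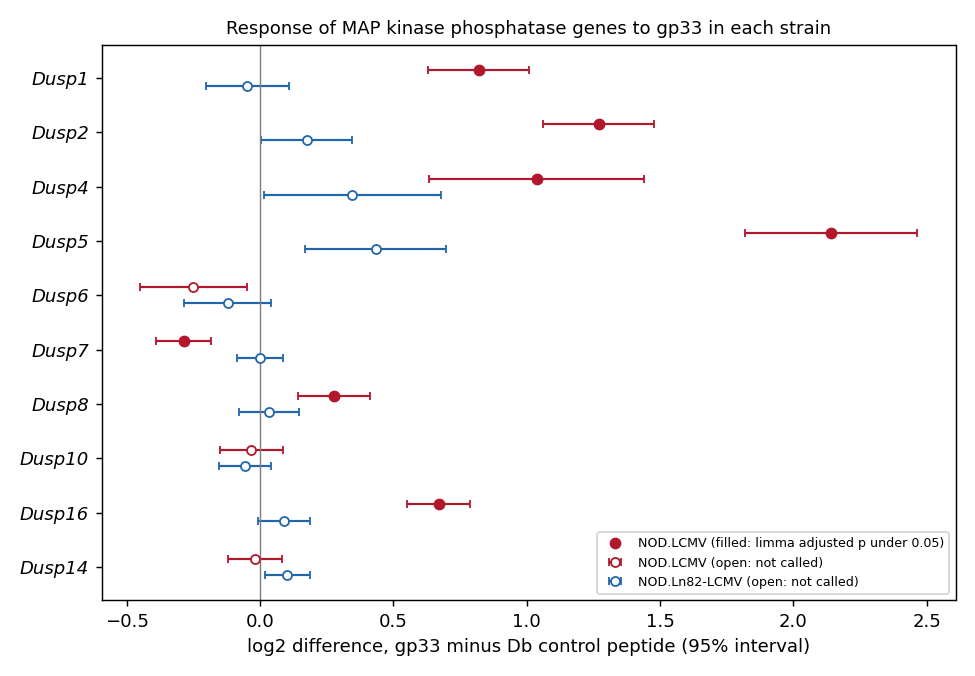
Log2 difference between gp33 and the control peptide for each gene, with its 95% interval, in NOD.LCMV (red, upper) and NOD.Ln82-LCMV (blue, lower); filled points passed limma's test at an adjusted p under 0.05 over all genes. In NOD.LCMV 7 points are filled, from -0.29 in Dusp7 to 2.14 in Dusp5, and in NOD.Ln82-LCMV 0 are, with the highest at 0.43 in Dusp5.

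The responses of the strains differed in 5 members by a test of the difference itself, 4 of them with a higher response in NOD.LCMV, against 8.73% of all genes, 4.46% with a higher and 4.26% with a lower response in NOD.LCMV. Among all genes the split was 890 higher and 850 lower, and 992 higher and 523 lower after centring the array medians. The response of Dusp5 in NOD.LCMV minus that in NOD.Ln82-LCMV was 1.71 ± 0.20 log2 (limma adjusted p = 3.67e-05), that of Dusp2 1.096 ± 0.13 log2 (limma adjusted p = 3.97e-05), that of Dusp1 0.87 ± 0.12 log2 (limma adjusted p = 0.000151) and that of Dusp16 0.58 ± 0.07 log2 (limma adjusted p = 8.01e-05). For Dusp7 the difference between the responses was -0.29 ± 0.06 log2 (limma adjusted p = 0.0088), since it fell in NOD.LCMV and had a difference near 0 in NOD.Ln82-LCMV.

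In Dusp4 and Dusp8, which rose in NOD.LCMV, a difference between the strains' responses was not shown. It was 0.69 ± 0.25 log2 for Dusp4, (95% interval 0.17 to 1.21, limma adjusted p = 0.104), and 0.24 ± 0.08 log2 for Dusp8, with an interval of 0.07 to 0.42 (limma adjusted p = 0.0869). Without replicate 5 of the NOD.Ln82-LCMV mice given gp33, which was high in both genes, the differences were 0.79 log2 (limma adjusted p = 0.0365) and 0.29 log2 (limma adjusted p = 0.00746). Over all arrays left out in turn, the Dusp4 difference lay between 0.58 and 0.80 log2, with the limma adjusted p between 0.0365 and 0.256. That of Dusp8 lay between 0.21 and 0.29 log2, with the limma adjusted p between 0.00746 and 0.194. The remaining members had differences between responses of -0.13 log2 in Dusp6, -0.12 log2 in Dusp14 and 0.02 log2 in Dusp10, with 95% intervals that included 0.

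With gp33 in both strains, 7 members differed between NOD.LCMV and NOD.Ln82-LCMV mice, 6 higher and 1 lower in NOD.LCMV, against 27.0% of all genes called, 10.2% higher and 16.8% lower. All genes split into 2032 higher and 3354 lower, and into 1642 higher and 4284 lower after centring the array medians. This comparison uses the gp33 mice of both responses above and is not independent of them. Dusp5 was higher in NOD.LCMV by 1.30 ± 0.14 log2, Dusp2 by 1.14 ± 0.09, Dusp1 by 0.87 ± 0.08, Dusp4 by 0.68 ± 0.17, Dusp16 by 0.57 ± 0.05 and Dusp8 by 0.19 ± 0.06 log2, with the limma adjusted p between 1.74e-07 in Dusp2 and 0.0209 in Dusp8. Dusp7 was lower by 0.43 ± 0.04 log2 (limma adjusted p = 3.01e-06). The calls of the weakest of these depended on single mice: without replicate 2 of the NOD.LCMV mice given gp33, Dusp4 was at 0.56 log2 (limma adjusted p = 0.0509) and Dusp8 at 0.20 log2 (limma adjusted p = 0.0524), and without replicate 1 Dusp8 was at 0.16 log2 (limma adjusted p = 0.101). Every NOD.LCMV mouse lay above every NOD.Ln82-LCMV mouse in 5 members, against 10.6% of all genes, and below in 1, against 16.3%. Dusp8 is not among the 5, because replicate 5 of the NOD.Ln82-LCMV mice given gp33 reached 7.80.

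With the control peptide, 0 of the 10 members passed the test between the strains, where 10.3% of all genes did, 4.77% higher and 5.54% lower in NOD.LCMV. Among all genes 952 were higher and 1105 lower in NOD.LCMV, and 384 and 2132 after centring the array medians. At an unadjusted p under 0.05 limma gave 3 members, 1 higher and 2 lower, against 22.3% of all genes, 11.6% higher and 10.8% lower. Dusp5 averaged 9.48 ± 0.11 log2 in NOD.LCMV (SD, n = 3) and 9.89 ± 0.24 log2 in NOD.Ln82-LCMV (SD, n = 4), a difference of -0.41 ± 0.14 log2 (limma adjusted p = 0.086). Without control replicate 1 of NOD.Ln82-LCMV the difference of Dusp5 was -0.52 log2 (limma adjusted p = 0.0141), and with all its values kept but without replicate 2 of the NOD.LCMV mice given gp33 in the shared estimate of the spread, its -0.41 log2 passed as well (limma adjusted p = 0.0381). Dusp7 averaged 10.36 ± 0.05 log2 in NOD.LCMV and 10.50 ± 0.04 log2 in NOD.Ln82-LCMV, a difference of -0.14 ± 0.05 log2 (limma adjusted p = 0.0649). Dusp14 averaged 8.42 ± 0.06 log2 in NOD.LCMV and 8.30 ± 0.02 log2 in NOD.Ln82-LCMV, a difference of 0.12 ± 0.04 log2 (limma adjusted p = 0.112). Neither Dusp7 nor Dusp14 overlapped between the strains, a pattern found in 9.36% of all genes for lower and 10.3% for higher values.

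The order of the group means differed between members, and not every step between neighbouring groups was called. For Dusp5 the NOD.LCMV mice given gp33 were highest at 11.62 ± 0.32 log2 (SD, n = 3), then the NOD.Ln82-LCMV mice given gp33 at 10.32 ± 0.16 (SD, n = 5), the NOD.Ln82-LCMV mice with the control peptide at 9.89 ± 0.24 (SD, n = 4) and the NOD.LCMV mice given the control peptide at 9.48 ± 0.11 (SD, n = 3). Of these steps in Dusp5, only that between the strains with gp33 was called. The step between the peptides in NOD.Ln82-LCMV (limma adjusted p = 0.623) was not, nor that between the strains with the control peptide (limma adjusted p = 0.086). For Dusp1 the NOD.LCMV mice given gp33 stood alone at 11.14 ± 0.16 log2 (SD, n = 3). The other 3 group means of Dusp1 lay between 10.27 and 10.32 log2 and did not differ beyond their spread. For Dusp7 both NOD.Ln82-LCMV groups had means of 10.50 log2 and the NOD.LCMV mice given gp33 were lowest at 10.08 ± 0.04 (SD, n = 3). Dusp10 had all 4 group means between 11.17 and 11.22 log2, with neighbours that did not differ beyond their spread.

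Likeness was measured as the root mean square difference between 2 genes' log2 values over the 15 arrays, each gene centred on its own mean, and is a description without a test. Predicted and clone-named genes were left out of the search, so the nearest genes named here are the nearest among the rest. The genes nearest to Dusp5, whose SD over the arrays was 0.78 log2, were Trib1, a pseudokinase, at 0.137 log2, Gem, a small GTP-binding protein of the Ras superfamily, at 0.141 log2 and Batf, an AP-1 family transcription factor, at 0.164 log2. Trib1 had log2 values of 9.80, 10.51 and 9.87 in NOD.LCMV mice given gp33, against 8.05, 7.94 and 8.04 in those given the control peptide, and like Dusp5 it was highest in replicate 2. In NOD.Ln82-LCMV its values were 8.92, 8.67, 8.53, 8.50 and 8.75 with gp33, against 7.83, 8.48, 8.40 and 8.31 with the control peptide, and control replicate 1 was the lowest, as in Dusp5. Nearest to Dusp2 were Zfp36l1 (0.102 log2), Trmt61a (0.104 log2) and Nfkbiz (0.104 log2). Nearest to Dusp1 were Noct (0.0925 log2), Homer1 (0.103 log2) and Rnf19a (0.105 log2), and nearest to Dusp4 were Rrad (0.186 log2), Pou2af1 (0.19 log2) and Sh3bp2 (0.19 log2). Among the members themselves, Dusp1 and Dusp16 were near each other at 0.147 log2, while Dusp5 and Dusp7 were farthest apart at 0.877 log2.

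**Figure D3:**
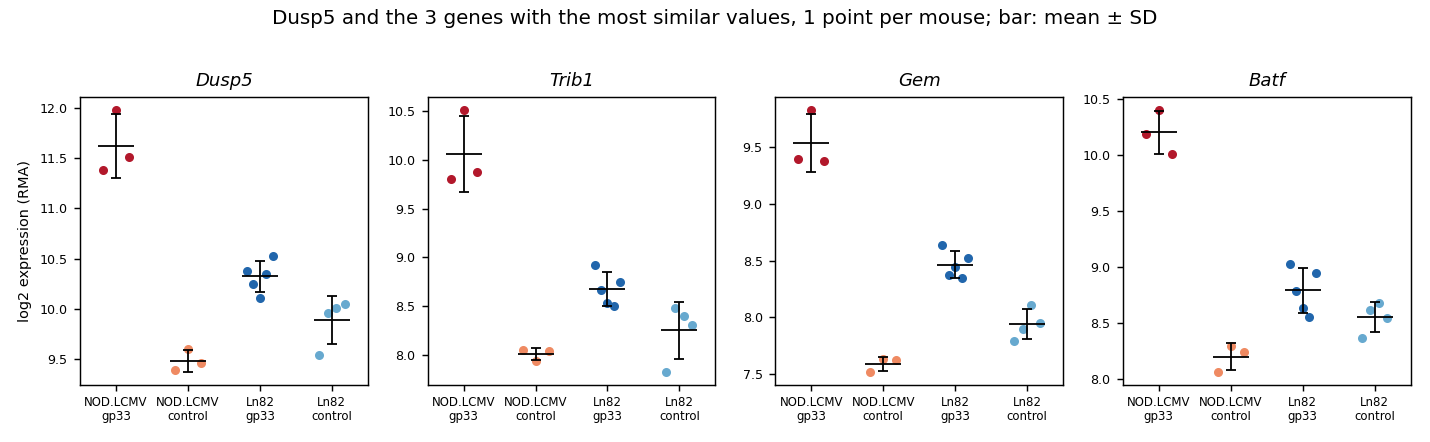
Log2 expression (RMA) of Dusp5 and of the 3 genes with the smallest root mean square difference from it over the 15 arrays, predicted and clone-named genes left out. Each mouse is 1 point, and bars give the group mean and SD. Each panel has its own y axis and Ln82 stands for NOD.Ln82-LCMV. In all 4 genes the NOD.LCMV mice given gp33 are highest, the NOD.LCMV mice given the control peptide have the lowest mean, and the means of both NOD.Ln82-LCMV groups lie between, although single mice overlap.

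Of 8 MAP kinase genes analysed here, 1 rose in the gp33 response of NOD.LCMV, 1 fell and 6 did not pass, with a median difference of -0.05 log2 against -0.03 over all genes. A count of 2 of 8 is near the background of 19.8% and says nothing particular of these kinases. Mapk11, the p38β gene, had log2 values of 9.42, 9.74 and 9.41 in NOD.LCMV mice given gp33, against 9.01, 8.88 and 8.79 in those given the control peptide, and rose by 0.63 ± 0.12 log2 (limma adjusted p = 0.0019). Mapk14, the p38α gene, fell by 0.13 ± 0.04 log2 (limma adjusted p = 0.0472). The JNK genes Mapk9 and Mapk10 were at -0.19 and -0.25 log2 and did not pass, and the other probe set of Mapk10 was at 0.007 log2. In NOD.Ln82-LCMV 0 of the 8 passed limma's test, 0 of them at an unadjusted p under 0.05, and the difference between the strains' responses passed in 0 as well, with 2 at an unadjusted limma p under 0.05, against 20.5% of all genes.

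Upstream of the kinases, 23 genes were analysed here, and in the gp33 response of NOD.LCMV 4 rose, 6 fell and 13 did not pass, against 7.29% higher and 12.5% lower over all genes, with a median of -0.07 log2. In NOD.Ln82-LCMV 0 of the 23 passed limma's test, with 3 at an unadjusted p under 0.05, against 5.97% of all genes. Map3k8, a kinase that activates the ERK pathway and is best known for its role in inflammatory signalling, had log2 values of 10.29, 10.34 and 10.11 in NOD.LCMV mice given gp33, against 8.47, 8.47 and 8.08 in those given the control peptide. It rose by 1.91 ± 0.10 log2, or 3.75-fold, and its response exceeded that of NOD.Ln82-LCMV by 1.54 ± 0.13 log2 (limma adjusted p = 2.45e-06). In NOD.Ln82-LCMV Map3k8 differed by 0.37 ± 0.08 log2 without overlap between the groups, and it did not pass over all genes (limma adjusted p = 0.374). The genes of the p38 kinase kinases moved apart in NOD.LCMV, where Map2k3 rose by 0.80 ± 0.08 log2 (limma adjusted p = 3.53e-06) and Map2k6, named after its value was seen, fell by 0.90 ± 0.11 log2 (limma adjusted p = 4.57e-05). Map2k6 also differed by -0.28 ± 0.09 log2 in NOD.Ln82-LCMV without overlap between the groups, and it did not pass there (limma adjusted p = 0.691). Map2k3 differed by -0.08 ± 0.07 log2 in that strain. Ksr1, a scaffold of the ERK cascade, rose by 0.60 ± 0.07 log2 in NOD.LCMV. Map3k5, a stress kinase upstream of JNK and p38, rose by 0.49 ± 0.06 log2 in NOD.LCMV. The difference between the strains' responses passed in 7 of the 23, 4 with a higher and 3 with a lower response in NOD.LCMV, against 8.73% of all genes.

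Of 18 further dual-specificity and MAP kinase-directed phosphatase genes, all measured, 1 rose, 1 fell and 16 did not pass in the gp33 response of NOD.LCMV, no more than the background of 19.8%. The median difference was -0.02 log2. Dusp19, which acts in the JNK pathway, fell by 0.36 ± 0.06 log2 (limma adjusted p = 0.000488). Dusp12 rose by 0.36 ± 0.06 log2 (limma adjusted p = 0.000625), but its other probe set differed by 0.02 log2, so its probe sets disagree. Dusp28 and Styx were at -0.19 and 0.16 log2 and did not pass, and the other probe sets of Styx were at 0.01 and 0.14 log2. In NOD.Ln82-LCMV 0 of the 18 passed limma's test, with 1 at an unadjusted p under 0.05, against 5.97% of all genes.

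Of 14 listed genes known as outputs of ERK signalling, 9 rose after gp33 in NOD.LCMV, 0 fell and 5 did not pass by limma's test. Over all genes 7.29% were called higher and 12.5% lower. The median of the 14 was 0.47 log2. At an unadjusted p under 0.05, 10 were higher and 0 lower, against 9.59% and 19.4% of all genes (29.0% in either direction). Fos, a subunit of AP-1, rose by 1.99 ± 0.21 log2 and spread widely among the gp33 mice, at 8.72, 9.71 and 9.27 log2 against 7.04, 7.32 and 7.38 log2 in the control mice. The immediate early genes Ier2 and Ier3 rose by 1.247 ± 0.13 and 1.15 ± 0.09 log2, and Fosl1, another AP-1 subunit, rose by 1.08 ± 0.17 log2 with replicate 2 the highest at 8.18 log2. In NOD.Ln82-LCMV 0 of the 14 passed, with 2 at an unadjusted limma p under 0.05, against 5.97% of all genes. The difference between the strains' responses passed in 6, all larger in NOD.LCMV. Over all genes it passed in 8.73%, with a higher response in NOD.LCMV in 4.46%.

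**Figure D4:**
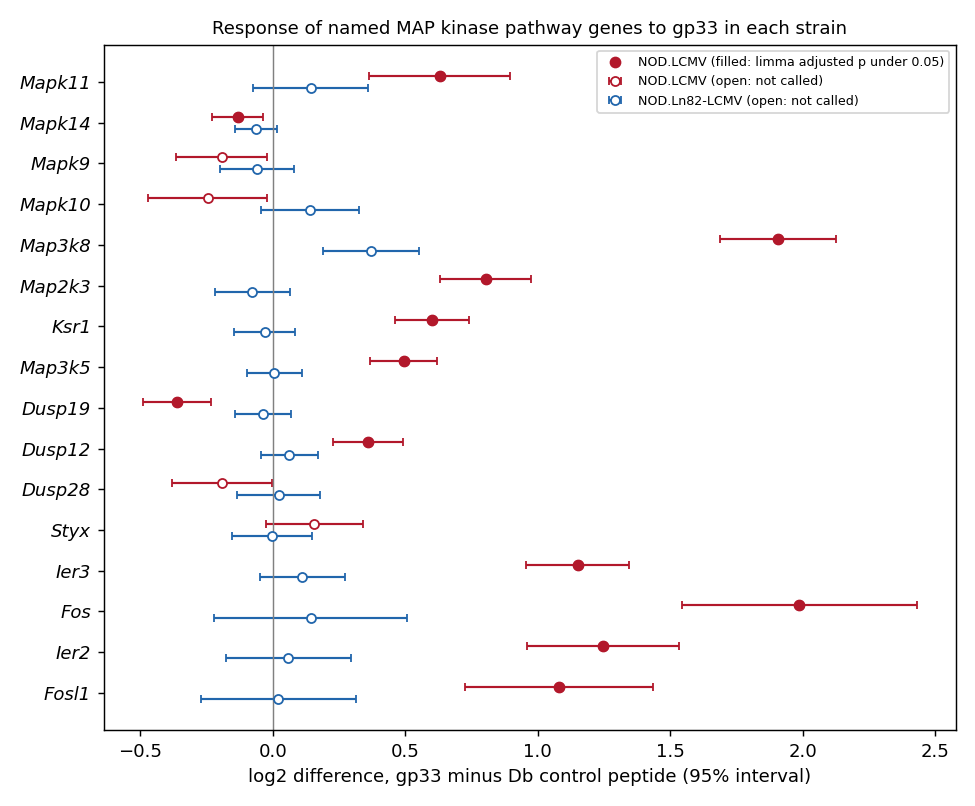
Log2 difference between gp33 and the control peptide for up to 4 genes of each pathway list, with its 95% interval, in NOD.LCMV (red, upper) and NOD.Ln82-LCMV (blue, lower); filled points passed limma's test at an adjusted p under 0.05 over all genes. Map3k8 and Fos stand farthest to the right in NOD.LCMV, at 1.91 and 1.99 log2, and in NOD.Ln82-LCMV 0 points are filled.

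Markers of several cell types also changed after gp33 in NOD.LCMV, some upward and some downward. Of 9 granulocyte markers 7 rose, where 7.29% of all genes were called higher. The mean log2 of the 9 per array was 7.69 to 8.01 in NOD.LCMV mice given gp33, against 6.88 to 7.08 in those given the control peptide. In NOD.Ln82-LCMV that mean was 6.77 to 7.12 with gp33, against 6.63 to 6.81 with the control peptide. There 0 of the 9 passed limma's test, with 3 higher at an unadjusted p under 0.05, against 2.65% of all genes. Of 9 thymocyte markers 5 fell in NOD.LCMV, with means of 10.93 to 11.56 with gp33, against 11.45 to 11.72 with the control peptide. Falls also passed in 4 of 10 markers of dendritic cells and macrophages, 2 of 8 of thymic epithelium, 2 of 7 of endothelium and 1 of 7 of fibroblasts, where 12.5% of all genes were called lower, and in 0 of 6 of B cells and 0 of 6 of adipocytes (0 of each at an unadjusted limma p under 0.05). The 2 granulocyte markers that did not pass in NOD.LCMV were Ngp and Camp, at 0.09 and -0.07 log2. In whole tissue fewer cells of a type and less RNA per cell cannot be told apart, and the part of these cells in the differences of the phosphatase genes was not tested.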

How the data were processed

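Total RNA of whole thymus from 15 mice was hybridised, 1 array per mouse. The deposited log2 values of 35556 probe sets were made by the authors with RMA in Affymetrix Expression Console 1.1, per the submitters' processing notes, and were used without further normalization. Probe sets with exactly 1 symbol (21789) gave 19938 genes, each by its highest-mean probe set; 1621 probe sets with several symbols and 12146 without one were left out of the tests. Group means of all arrays were fitted together in R 4.3.3 by limma 3.58.1 (11 residual degrees of freedom), with two-sided tests and Benjamini-Hochberg adjustment over all genes. The model was tested on simulated data. Single genes were also compared by exact permutation tests over mice. In NOD.Ln82-LCMV the replicate numbers gave no sign of pairing (correlations of same-numbered deviations 0.117, 0.00848, -0.0495 and -0.226), so the replicate block is an alternative. These few values cannot exclude a pairing. The titles of the NOD.LCMV samples give no replicate numbers, and these mice are numbered here in the order listed.

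The members and lists were chosen with earlier results of these data known. Named were all members, up to 4 genes per pathway list with the smallest adjusted p in NOD.LCMV, and the 3 genes most like each of the 4 members that changed most. Predicted and clone-named genes were left out of that last choice. Some listed genes are not reported here. Nothing says whether mice shared litters, so p-values measure the spread between these mice.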

Additional observations from a re-analysis of the deposited data

Results flagged for a closer look

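The gp33 responses of the strains differed by the test of the difference itself in 5 genes: by 1.71 log2 in Dusp5, 1.096 in Dusp2, 0.87 in Dusp1, 0.58 in Dusp16 and -0.29 in Dusp7, each as the NOD.LCMV response minus the NOD.Ln82-LCMV response. Single mice stood apart from their group in 2 of 20 sets of 4 or 5 mice tested with Dixon's criterion, and chance sets apart about 1 in 20. Dusp8 was at 7.80 log2 in replicate 5 of the NOD.Ln82-LCMV mice given gp33, with the nearest mouse at 7.60 and the lowest at 7.54. Dusp10 was at 11.29 log2 in replicate 1 of the NOD.Ln82-LCMV mice with the control peptide, with the other 3 at 11.20.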

How the results depend on the processing

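In the gp33 response of NOD.LCMV the count of members called was 7 under each alternative that kept all arrays (a second quantile normalization, centred array medians, the dimmest genes left out, the mean over probe sets, every probe set tested, array weights, a variance trend, a replicate block, only the groups compared) and 7 to 8 with each array left out in turn. In NOD.Ln82-LCMV it was 0 throughout. The difference between the responses gave 5 to 7, with Dusp4 or Dusp8 added. It gave 7 under the replicate block, where Dusp4 was at 0.79 log2 (limma adjusted p = 0.043) and Dusp8 at 0.29 log2 (limma adjusted p = 0.0231). These differences equal those without NOD.Ln82-LCMV gp33 replicate 5, which has no control mouse of its number. The block is therefore no separate support for these calls. The block, whose numbers gave no sign of pairing in NOD.Ln82-LCMV, gave 7 members in the response of NOD.LCMV and 0 in that of NOD.Ln82-LCMV. The strain difference with gp33 gave 5 to 7. Dusp8 was lost there with the mean over its probe sets (0.16 log2) and with only the groups compared. The strain difference with the control peptide gave 2 members with centred medians (Dusp5 at -0.47 and Dusp7 at -0.21 log2), 3 with array weights (those and Dusp14), and 0 to 1 with an array left out; the cause was not tested. No called value changed sign. Over all genes, the strain difference with the control peptide gave 2057 genes, against 4350 with array weights, 3928 with every probe set tested, and 1188, 1310 and 1049 without NOD.Ln82-LCMV control replicate 3 or NOD.LCMV control replicate 2 or 3. The difference between the responses gave 1740 genes, against 3175 with array weights, the strain difference with gp33 5386, against 8240 with every probe set tested, and the response of NOD.Ln82-LCMV 1, against 0 to 4. The block could not be fitted for the strain differences, and only the groups compared gives no separate fit of the difference between the responses.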
